A study of Mus musculus with 36 samples.

Results

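The cytosolic ribosomal protein genes were taken from the RNA-seq table of stimulated mouse cortical neurons (CNs) as all genes whose symbol begins with Rpl or Rps and a digit, together with Rplp0, Rplp1, Rplp2 and Rpsa. Symbols ending in '-ps' (named pseudogene copies) and the Rps6k kinases were left out, and a mean of at least 10 normalised counts over the 18 libraries was required. Of 26709 genes in the table, 84 met the symbol rule and 82 of these passed the level filter, 45 of the large subunit (Rpl) and 37 of the small subunit (Rps). Rpl39l and Rpl3l were below the filter. In the gene annotation used here, 76 of the 82 are protein coding and 6 are annotated as pseudogenes (Rps3a2, Rps3a3, Rps12l1, Rpl6l, Rps4l and Rpl37rt). Rps19bp1 is in the list by its symbol but encodes a protein that binds Rps19, not a ribosomal subunit protein. A further 7 ribosomal protein genes (Rpl10, Rps6, Rpl21, Rpl27, Rpl29, Rpl30 and Rpl34) carry another symbol in the deposited table and are described beside the 82.

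Each cytosolic ribosome is built from a small subunit, which reads the mRNA, and a large subunit, which joins amino acids, and its proteins are needed in matched amounts. Their mRNAs are short and abundant, and most begin with a run of pyrimidines, the 5′ terminal oligopyrimidine (TOP) motif, through which the mTOR pathway controls their translation. In neurons, ribosomes also stand in dendrites and axons, and BDNF acts on local translation through mTOR.

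The cells were CD-1 CNs taken at embryonic day 15 and cultured for 7 days, with tissue of all embryos dissociated together. All wells, stimulated or not, were silenced for 2 h with 100 µM AP-5, which blocks NMDA receptors, and 1 µM TTX, which blocks sodium channels. Cells were then stimulated with 10 ng/ml BDNF, the ligand of the TrkB receptor, or depolarised with 55 mM KCl, for 1, 6 or 10 h, while controls stayed in AP-5 and TTX for 3, 8 or 12 h in total. There were 2 libraries in each of 9 groups for RNA-seq and likewise for ATAC-seq, which measures open chromatin. The question is how the ribosomal protein genes responded to each stimulus over time, and whether their promoters changed with them. The study calls its libraries biological replicates, and the labels name no separate cultures or animals, so that p-values measure the spread between these libraries.

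RNA libraries held 8.51 to 36.7 M gene reads. KCl 6 h library B stood apart: 3.26% of its reads fell in Gm42418 (0.0416 to 0.401% in the other 17; a gene chosen after its values were seen), and its counts differed from library A by a chi-square of 36.4 per degree of freedom, against 2.33 to 9.77 between the libraries of the other groups. The numbers of ribosomal protein genes called at KCl 6 h, their median change and the values of some single genes are therefore also given without library B. Other RNA values at KCl 6 h include it, among them those of the remaining single genes, the pseudogene copies, the other gene lists, the markers and the length classes. How far these depend on library B is not shown. No marker of the 6 cell type lists was at 0 in every library. The summed level of 10 neuron markers spanned 51982 to 58098 in controls and 50827 to 60831 under KCl. The 8 astrocyte and radial glia markers spanned 23502 to 29427 and 20506 to 31010, the 8 oligodendrocyte lineage markers 6161 to 6620 and 4633 to 7577, and the 6 proliferation markers 4365 to 7186 and 3079 to 6692. Microglia markers summed to 141 to 211 and 137 to 243, and endothelial and pericyte markers to 394 to 1397 and 443 to 1133. Under BDNF the sums spanned 53767 to 58941 for neuron, 22510 to 28212 for astrocyte and radial glia, 5773 to 6917 for oligodendrocyte lineage, 3854 to 5945 for proliferation, 132 to 185 for microglia and 364 to 723 for endothelial and pericyte markers. The BDNF medians of the endothelial and the proliferation markers were 516 and 4172, against 839 and 6104 in controls. At KCl 6 h, 6 of 8 astrocyte and radial glia markers, 5 of 8 oligodendrocyte lineage markers and 4 of 6 proliferation markers fell, and 7 of 10 neuron markers rose and 2 fell. Of the 16209 genes tested, 33.4% rose and 33.1% fell. The oligodendrocyte lineage sums at KCl 6 h were 7044 and 7456, above all controls, so that counts and sums went different ways. The other sums were 50827 and 59026 for neuron, 20506 and 24902 for astrocyte and radial glia, and 3170 and 3642 for proliferation markers. The part of these shifts in the ribosomal protein values was not tested, and fewer cells of a type cannot be told apart from less RNA per cell.

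Promoter sequences (RefSeq, GRCm38.p6) matched 60 of the 82 genes. Shown are Rpl41, Rpl13a and Rps28, which rose most at KCl 6 h, Rps15a, which rose most at KCl 1 h without the reads of its copies, Rpl38 and Rplp2 for their starts, the RT-qPCR reference gene Rpl13, and the paralogs Rpl22 and Rpl22l1, whose mRNAs moved apart. Each line runs 5′ to 3′ from 65 bases before the first annotated start in the table to 15 bases from it on. Capitals mark the letters of a searched motif or a TOP-like start, defined as a start base C followed by at least 4 C or T.
Rpl41 (chr10:128549154-128549233, minus strand): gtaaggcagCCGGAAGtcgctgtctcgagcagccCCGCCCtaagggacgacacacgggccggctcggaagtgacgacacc
Rpl13a (chr7:45128731-45128810, minus strand): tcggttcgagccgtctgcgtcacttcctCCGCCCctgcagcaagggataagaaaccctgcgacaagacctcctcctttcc
Rps28 (chr17:33824548-33824627, minus strand): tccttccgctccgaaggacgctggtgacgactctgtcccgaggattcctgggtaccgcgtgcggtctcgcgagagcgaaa
Rpl38 (chr11:114668515-114668594, plus strand): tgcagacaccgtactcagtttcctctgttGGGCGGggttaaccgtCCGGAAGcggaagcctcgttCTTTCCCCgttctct
Rplp2 (chr7:141447586-141447665, plus strand): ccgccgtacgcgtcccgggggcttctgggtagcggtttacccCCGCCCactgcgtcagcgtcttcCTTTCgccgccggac
Rps15a (chr7:118116133-118116212, minus strand): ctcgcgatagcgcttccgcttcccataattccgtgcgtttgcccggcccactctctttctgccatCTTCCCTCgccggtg
Rpl13 (chr8:123102285-123102364, plus strand): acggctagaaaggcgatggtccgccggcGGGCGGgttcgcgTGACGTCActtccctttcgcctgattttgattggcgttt
Rpl22 (chr4:152325661-152325740, plus strand): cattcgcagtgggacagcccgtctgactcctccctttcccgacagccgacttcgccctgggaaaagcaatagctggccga
Rpl22l1 (chr3:28805443-28805522, plus strand): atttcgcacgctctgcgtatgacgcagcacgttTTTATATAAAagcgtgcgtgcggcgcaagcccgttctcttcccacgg

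Over the full promoter window, 250 bases before to 50 after the start and on both strands, the ETS letters CCGGAAG stood at 1 or more annotated starts of 23 of 60 genes (38.3%), against 9.93% of 27025 genes in the table. The SP/KLF letters GGGCGG stood in 37 of 60 (61.7%, against 38.2%), the YY1 letters AAGATGGCG in 4 (6.67%, against 1.64%), the NRF1 letters GCGCATGCG in 3 (5%, against 1.95%) and the CRE letters TGACGTCA in 5 (8.33%, against 2.03%). The ETS and SP/KLF letters were thus present at a larger share of these genes than of all genes, as a description of letters with no test. The TATA letters TATAAA (7 of 60, 11.7%, against 15.7%), the E-box CACGTG (5, 8.33%, against 8.09%), the AP-1 letters TGAGTCA (2, 3.33%, against 5.95%) and the EGR letters GCGTGGGCG (1, 1.67%, against 0.707%; these letters can overlap the SP/KLF letters) stood near or below the share of all genes or at few of them. A TOP-like start was found for 13 of 60 genes (21.7%, against 3.01%), and a run of at least 8 C or T within 20 bases before to 21 after the start for 29 (48.3%, against 18.8%). Of the promoters printed, Rpl38 held ETS, SP/KLF and TOP-like letters together, Rpl13 held the CRE letters, Rpl22l1 held the TATA letters on both strands, and Rps28 and Rpl22 held no searched letters in the printed window.

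Per kilobase of principal transcript, Rpl41, the smallest ribosomal protein, had the highest level, with a mean of 9143 normalised counts per kb over 18 libraries. It was followed by Rplp1 (5188) of the ribosomal stalk, Rpl22 (5006), Rps15 (4065) and Rpl8 (4013), and the lowest was Rpl24 (88.1). The place of Rpl22 rested on a short principal transcript: with the median transcript length of each gene it ranked 32 instead of 3. These levels depend on how reads that match more than 1 place were counted, which is not given in the sources used here. For 48 of the 82 genes the table also lists named pseudogene copies, 168 in all, and for 29 genes the copies together hold more reads than the gene. In Rps13 92.4% of the reads of gene and copies lay in the copies, in Rpl31 91.9%, in Rpl38 89.3%, in Rpl3 85.2% and in Rpsa 81.6%, while Rpl41, Rplp1 and Rps28 have no named copy. The order of levels is therefore a property of the counting as well as of the cells.

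As a share of all gene reads, the 82 genes took 0.661 ± 0.029% in the controls (SD, n = 6; 0.632 to 0.700%). The share was 0.684, 0.736 and 0.761% after 1, 6 and 10 h of BDNF, and 0.770, 0.843 and 0.756% after 1, 6 and 10 h of KCl (means of 2 libraries). Every KCl library (0.722 to 0.931%) lay above every control library, and so did all BDNF libraries (0.704 to 0.810%) but library B of BDNF 1 h (0.665%). The highest share, 0.931%, was that of KCl 6 h library B. The pseudogene copies took 0.616 ± 0.030% in the controls and 0.774% at KCl 6 h.

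**Figure D1:**
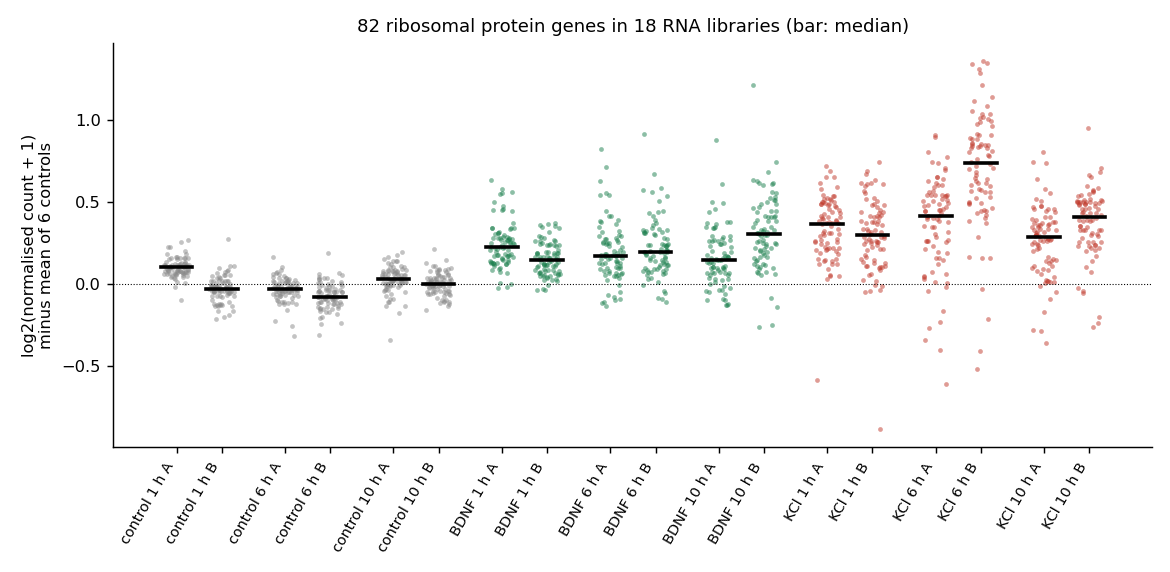
Each point is 1 of the 82 genes in 1 RNA library, as log2(normalised count + 1) minus its mean over the 6 controls, and bars are medians. The medians span −0.08 to 0.10 in controls, 0.15 to 0.31 under BDNF and 0.29 to 0.74 under KCl, with KCl 6 h library B highest.

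After BDNF, 38 of 82 genes rose at 1 h, 36 at 6 h and 44 at 10 h (limma, adjusted p below 0.1 over 16209 genes tested; each stimulated group against the 6 controls together, so that the comparisons share their controls). Among all genes tested, 21.3%, 22.1% and 21.1% rose. The median log2 fold changes of the 82 were 0.19, 0.19 and 0.22. limma called 0 of them lower at any time of BDNF, with 0 lower at an unadjusted p below 0.05 and 0 lower by edgeR or DESeq2. Both BDNF libraries lay above all 6 controls for 49 genes at 1 h, 43 at 6 h and 43 at 10 h, where 24.6%, 25.8% and 23.4% of all genes did. The BDNF counts turn on single libraries: without library A of BDNF 1 h 2 genes rose and without library B 25, without library A of BDNF 6 h 22 and without library B 15, and without library B of BDNF 10 h 12. Against the controls of the same time only, 3 genes rose at 1 h and 22 at 10 h, where 14.6% and 14.4% of all genes did. In that setting the rising share of the 82 was thus below that of all genes at 1 h and above it at 10 h.

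After KCl, 61 of 82 genes rose and 1 fell at 1 h, 74 rose and 3 fell at 6 h, and 64 rose and 3 fell at 10 h. Among all genes tested, 26.5%, 33.4% and 29% rose and 28.2%, 33.1% and 28.2% fell. The median log2 fold changes were 0.34, 0.59 and 0.36. Both KCl libraries lay above all controls for 64, 67 and 61 genes, where 26.4%, 30.2% and 28.4% of all genes did. Without KCl 6 h library B, 60 rose and 5 fell at 6 h with a median of 0.42, so that the direction of the group did not rest on that library while its size did. Without KCl 10 h library B, 43 genes were called at 10 h in either direction, against 67 with it.

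Of the large subunit proteins, Rpl13a, which is also known as part of an inhibitory complex on mRNA 3′ ends, had a normalised count of 729 at the lowest, 767 at the median and 906 at the highest in the 6 controls (SD 76.1). KCl libraries A and B held 1136 and 1105 (1 h), 1490 and 1837 (6 h), and 1324 and 1532 (10 h). All 6 KCl libraries were above the highest control. The log2 fold change was 0.50 ± 0.10 (SE) at 1 h, 1.06 ± 0.10 at 6 h (2.09-fold, limma adjusted p = 1.63e-08) and 0.85 ± 0.10 at 10 h (adjusted p = 7.26e-07). With BDNF the libraries lay between 774 and 1052, and the change was called at 10 h alone (0.26, adjusted p = 0.057); without library B of BDNF 10 h it was 0.10 and no longer called. Rpl41 held 2517, 2931 and 3241 in controls (lowest, median, highest), 4969 and 7449 at KCl 6 h, and 3569 to 4872 under BDNF. Its groups did not overlap the controls at any time, and the log2 fold change was 1.07 ± 0.13 at KCl 6 h (adjusted p = 3.18e-06; 0.78 without library B) and 0.56 ± 0.13 at BDNF 10 h (adjusted p = 0.00381; 0.38 and not called without library B). Rpl35, near the exit of the peptide tunnel, held 112, 136 and 147 in controls, 249 and 250 at KCl 6 h and 224 and 187 at KCl 10 h. Both groups lay above all controls, with 0.90 ± 0.11 (adjusted p = 4.91e-07) and 0.62 ± 0.11 (adjusted p = 9.55e-05). Rpl38, known for the translation of Hox mRNAs, held 83.2, 97.2 and 113 in controls and 153 and 248 at KCl 6 h (1.00 ± 0.16, adjusted p = 1.68e-05; 0.65 without library B). Its libraries at KCl 6 h lay above all controls but apart from each other. Rpl39, of the tunnel wall, held 397, 425 and 445 in controls and 490 and 831 at KCl 6 h (0.59 ± 0.13, adjusted p = 0.000758; 0.98 without library A, 0.21 and not called without library B). Its rise at 6 h thus rested on library B.

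Rplp0, Rplp1 and Rplp2 form the stalk that recruits elongation factors. Rplp0 held 4393, 4660 and 4944 in controls (lowest, median, highest), 6141 and 5901 at KCl 1 h, 5706 and 6946 at KCl 6 h and 5372 and 5739 at KCl 10 h. All KCl libraries were above the controls (0.43 ± 0.07 at 6 h, adjusted p = 8.36e-06), while the log2 fold changes with BDNF were 0.09, 0.09 and 0.08 and none was called. Rplp1 held 1906, 2033 and 2267 in controls, 2504 and 2364 at BDNF 1 h and 3061 and 4227 at KCl 6 h. It rose at every time of both stimuli, by 0.24 to 0.35 with BDNF and by 0.46 to 0.80 with KCl. Rplp2 held 339, 352 and 382 in controls, 523 and 456 at BDNF 1 h and 556 and 750 at KCl 6 h, and none of these groups overlapped the controls. Its log2 fold change was 0.47 ± 0.10 at BDNF 1 h (adjusted p = 0.000772) and 0.87 ± 0.10 at KCl 6 h (adjusted p = 1.35e-07). With 1 BDNF library left out, Rplp1 was not called at BDNF 1 h (0.20 without A, 0.28 without B) or 10 h (0.29 without B), nor Rplp2 at BDNF 6 h (0.32 without A, 0.28 without B) or 10 h (0.27 without B). Rpl5 and Rpl11, which carry 5S rRNA and bind Mdm2 when ribosome assembly is disturbed, differed from each other. Rpl11 held 576, 620 and 670 in controls and 817 and 984 at KCl 6 h (0.53 ± 0.08, adjusted p = 5.02e-06). Rpl5 held 1011, 1098 and 1176 in controls and 1193 and 1469 at KCl 6 h (0.27 ± 0.07, adjusted p = 0.00303; 0.42 without library A, 0.12 and not called without library B). The difference between the pair was not tested.

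Of the small subunit proteins, Rps28 held 164, 194 and 234 in controls (lowest, median, highest), 301 and 247 at BDNF 1 h, 305 and 302 at KCl 1 h and 339 and 494 at KCl 6 h. None of these groups overlapped the controls. The log2 fold change was 0.49 ± 0.13 at BDNF 1 h (adjusted p = 0.00664; 0.35 and not called without library A), 0.64 ± 0.13 at KCl 1 h (adjusted p = 0.000385) and 1.08 ± 0.13 at KCl 6 h (adjusted p = 5.01e-07; 0.81 without library B). Rps28 overlaps Kank3 on the other strand, which fell at KCl 6 h (−0.57, adjusted p = 0.0062); whether reads were counted by strand is not given in the sources used here. Rps27, a zinc finger protein of the small subunit, held 99.6, 113 and 119 in controls, 160 and 274 at KCl 6 h and 100.0 to 126 under BDNF. It rose after KCl (0.93 ± 0.15 at 6 h, adjusted p = 2.02e-05; 0.54 without library B), and its log2 fold changes of 0.11, 0.03 and 0.14 with BDNF were not called. Rps21 had the lowest counts of the 82, with 32.0, 34.5 and 41.4 in controls, 54.3 and 54.5 at BDNF 10 h and 49.2 and 77.6 at KCl 6 h. Both groups lay above all controls (0.61 ± 0.20, adjusted p = 0.024, and 0.79 ± 0.20, adjusted p = 0.00181), and neither call held with 1 library left out (0.62 without A and 0.61 without B of BDNF 10 h, and 0.47 without B of KCl 6 h). Rps2, at the entry of the mRNA channel, held 461, 470 and 521 in controls, 732 and 761 at KCl 1 h and 798 and 810 at KCl 6 h. Its KCl libraries lay well above the controls at both times, with 0.64 ± 0.08 (adjusted p = 9.44e-07) and 0.75 ± 0.08 (adjusted p = 6.65e-08). Rps27a, made as a fusion with ubiquitin, held 346, 353 and 401 in controls, 509 and 424 at BDNF 1 h and 512 and 718 at KCl 6 h (0.37 ± 0.11, adjusted p = 0.0139, and 0.75 ± 0.11, adjusted p = 6.13e-06). Its BDNF call was lost without library A (0.24). Rpsa, which also serves as a laminin receptor, held 1547, 1612 and 1763 in controls and 1855 and 2350 at KCl 6 h (0.36 ± 0.07, adjusted p = 0.000157; 0.19 without library B).

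Rpl13, a large subunit protein, was used by the study as the reference gene of its RT-qPCR. In controls it held 777, 820 and 887 normalised counts (lowest, median, highest). With BDNF, libraries A and B were at 963 and 905 (1 h), 979 and 951 (6 h), and 886 and 1025 (10 h). With KCl they were at 1113 and 1075, 1111 and 1248, and 1066 and 1075 at the same times. All but 1 of the 12 stimulated libraries, the A library of BDNF 10 h, lay above the highest control. On the log2 scale it rose by 0.18, 0.23 and 0.21 after BDNF (± 0.07; adjusted p = 0.0472, 0.0128 and 0.023) and by 0.41, 0.52 and 0.38 after KCl (± 0.07; adjusted p = 4.17e-05, 1.45e-06 and 0.000107). The BDNF calls did not hold with 1 library left out (0.14 without A at 1 h, 0.21 without A at 6 h and 0.11 without B at 10 h).

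Rpl3, a large subunit protein that reaches toward the peptidyl transferase centre, fell at the later times of KCl. It held 868, 912 and 989 in controls, 722 and 690 at KCl 6 h and 754 and 798 at KCl 10 h. Both KCl groups lay below all controls, by −0.38 ± 0.07 (adjusted p = 3.64e-05; −0.34 without library B) and −0.24 ± 0.07 (adjusted p = 0.00423). With BDNF it held 967 to 1053, with a call at 10 h (0.17, adjusted p = 0.0531) that was lost without library A (0.20) or B (0.13). BDNF differed from KCl by 0.51 at 6 h (adjusted p = 1.63e-05) and 0.41 at 10 h (adjusted p = 0.000355). The copies Rpl3-ps1 and Rpl3-ps2, which hold most reads of this family, fell as well at KCl 6 h, by −0.36 and −0.42 (adjusted p = 2.3e-05 and 2.9e-05). Syngr1, which overlaps Rpl3 on the other strand, rose by 0.62 (adjusted p = 7.3e-06).

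Rpl22 and Rpl22l1 are paralogs of which either can sit in the large subunit. Rpl22 held 2344, 2414 and 2579 in controls, 1841 and 2100 at KCl 6 h, 1991 and 2066 at KCl 10 h and 2359 to 2712 under BDNF. It lay below all controls at the 2 later times of KCl, by −0.31 ± 0.06 (adjusted p = 0.000294; −0.40 without library B) and −0.26 ± 0.06 (adjusted p = 0.00183). Rpl22l1 held 149, 183 and 200 in controls, 316 and 337 at BDNF 6 h, 328 and 415 at BDNF 10 h and 244 and 367 at KCl 6 h. All these libraries lay above the controls, and its log2 fold changes of 0.87 ± 0.13 at BDNF 6 h (adjusted p = 1.92e-05) and 1.05 ± 0.13 at BDNF 10 h (2.06-fold, adjusted p = 2.7e-06) were the largest of the 82 with BDNF. At KCl 6 h it was 0.74 ± 0.13 (adjusted p = 4.04e-05; 0.45 without library B), and BDNF exceeded KCl at 10 h by 0.53 (adjusted p = 0.0122). The pair thus moved in opposite directions at 6 and 10 h of KCl, while under BDNF Rpl22l1 rose and the log2 fold changes of Rpl22 were 0.05, −0.02 and 0.06, none called.

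**Figure D2:**
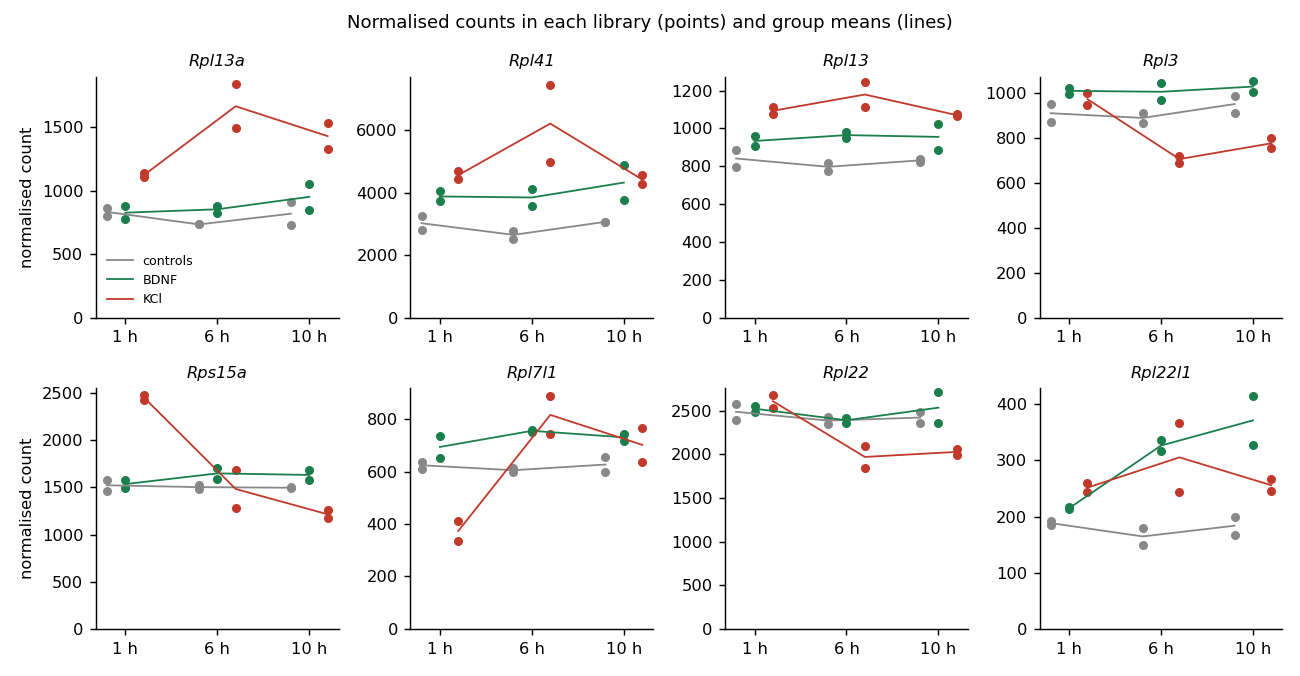
Normalised counts of 8 genes (vertical axes from 0) against time of stimulation; points are libraries, lines join the means of 2 libraries, and colours mark controls, BDNF and KCl. Rpl13a, Rpl41 and Rpl13 lie above the controls with KCl, Rpl3 and Rpl22 below them at 6 and 10 h, Rps15a and Rpl7l1 change direction between 1 and 10 h of KCl, and Rpl22l1 is highest with BDNF at 10 h.

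Rpl7l1, a paralog of Rpl7 that acts in ribosome assembly, held 597, 611 and 654 in controls, 412 and 335 at KCl 1 h and 743 and 889 at KCl 6 h. It lay below all controls at 1 h (−0.73 ± 0.09, adjusted p = 4.5e-07) and above them at 6 h (0.39 ± 0.09, adjusted p = 0.000531; 0.27 without library B). With BDNF it held 735 and 653 at 1 h, and the stimuli differed by 0.90 at that time (adjusted p = 7.78e-07). Rpl7 itself held 2199, 2316 and 2421 in controls and 2336 and 3149 at KCl 6 h (0.23, adjusted p = 0.0189; 0.45 without library A, 0.01 and not called without library B). Rps15a, a small subunit protein, was highest early: 2483 and 2427 at KCl 1 h against 1466, 1496 and 1579 in controls, and then 1173 and 1257 at KCl 10 h. The early rise (0.70 ± 0.08, adjusted p = 9.34e-08) was the largest of the 82 at KCl 1 h. With the reads of its copies added it was 0.43, below Rpl41 (0.65), which has no named copy, so this rank depended on the counting. At 10 h Rps15a lay below all controls (−0.31 ± 0.08, adjusted p = 0.00169). Its 6 tested copies had log2 fold changes of 0.25 to 0.46 at KCl 10 h, and with the reads of the copies added the value at 10 h was 0.12, so the direction depended on how reads of the copies were assigned. At BDNF 10 h it held 1577 and 1688, above KCl by 0.43 (adjusted p = 0.000954), while with copies added the changes against controls were 0.12 for either stimulus.

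Rpl12, of the stalk base, and Rpl36al, a paralog of Rpl36a, were not called at KCl 1 h (0.12 and 0.16) and rose at 6 h with either stimulus. Rpl12 held 388, 420 and 448 in controls, 427 and 484 at KCl 1 h, 632 and 756 at KCl 6 h and 687 and 669 at BDNF 6 h. The 6 h groups lay above all controls and beside each other, with 0.72 ± 0.08 for KCl (adjusted p = 8.74e-08) and 0.69 ± 0.08 for BDNF (adjusted p = 5.22e-07), and the difference between the stimuli was −0.03 ± 0.10 (adjusted p = 0.829). Rpl36al held 368, 427 and 473 in controls, 578 and 636 at BDNF 6 h, 582 and 681 at BDNF 10 h and 566 and 740 at KCl 6 h (0.52, 0.57 and 0.61; adjusted p = 0.000361, 0.00017 and 2e-05). Its paralog Rpl36a held 264, 290 and 301 in controls and 286 and 320 at KCl 6 h, and no comparison with the controls called it. Copies hold 72.0% of the reads of its family, and with them added it was called at each time of BDNF (0.23, 0.24 and 0.28) and at KCl 6 and 10 h (0.39 and 0.22), so that its difference from Rpl36al depended on the counting. Rps4x held 2017, 2091 and 2169 in controls, 1942 and 1940 at BDNF 6 h and 2155 and 2859 at KCl 6 h. The stimuli differed at 6 h by −0.35 (BDNF against KCl, adjusted p = 0.00435), and the rise with KCl (0.25, adjusted p = 0.0103) was 0.45 without library A and 0.04 and not called without library B. Rps4l, annotated as a pseudogene and overlapping Tmtc1 on the other strand, held 44.6, 49.6 and 52.6 in controls, 31.5 and 33.6 at KCl 6 h and 71.2 and 72.3 at BDNF 6 h. It was below all controls with KCl (−0.57 ± 0.16, adjusted p = 0.00381) and above them with BDNF (0.55 ± 0.16, adjusted p = 0.00914). Tmtc1 itself fell with both stimuli at 6 h (−0.97 with KCl and −1.53 with BDNF). Rps27l, a paralog of Rps27 induced by p53, held 166, 211 and 251 in controls and 172 and 373 at KCl 6 h. It was called in no comparison with the controls.

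Rpl4, Rpl15, Rps15a, Rpl36a and Rps27l were the 5 genes not called at KCl 6 h. With the reads of copies added, 3 of these were called higher, Rpl15 by 0.20, Rps15a by 0.35 and Rpl36a by 0.39 (limma adjusted p = 0.0182, 0.00349 and 0.000409), while Rpl4 and Rps27l have no named copy. Rpl4, a large subunit protein that reaches into the peptide tunnel, held 3326, 3451 and 3611 in controls and 3349 and 3384 at KCl 6 h. These libraries lay within the range of the controls, and the log2 fold change was −0.04 ± 0.06. Rpl8, beside it among the highly expressed genes, held 2761, 2872 and 3087 in controls and 3863 and 4099 at KCl 6 h, above all controls (0.45 ± 0.06, adjusted p = 2.02e-06). Rps3, at the mRNA entry site, held 2621, 2771 and 2885 in controls and 3936 and 4868 at KCl 6 h (0.66 ± 0.08, adjusted p = 1.85e-07). The lowly counted Rpl24, of the bridge between the subunits, held 41.5, 53.9 and 56.0 in controls and 61.9 and 92.6 at KCl 6 h (0.54 ± 0.18, adjusted p = 0.0144; 0.83 without library A, 0.26 and not called without library B).

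Compared directly at the same time, BDNF was below KCl for 20 genes and above it for 2 at 1 h, below for 58 and above for 3 at 6 h, and below for 16 and above for 7 at 10 h. Of all genes tested, BDNF was below KCl for 18.2%, 27.8% and 21.8% and above it for 24.6%, 29.6% and 23.1%. Rps15a (−0.68 at 1 h) and Rpl13a (−0.44, −0.96 and −0.59 at 1, 6 and 10 h) were among those lower with BDNF, and Rpl7l1 at 1 h, Rps4l and Rpl3 at 6 h and Rpl22l1 at 10 h were the highest with BDNF. With copies added, Rps15a changed against controls by 0.13 with BDNF and 0.43 with KCl at 1 h. The size of its difference thus depended on the counting. Without KCl 6 h library B, 36 were below and 7 above at 6 h. With 1 library left out, between 11 and 16 genes were called at 1 h (12 without KCl library B, 11 without BDNF library B) and between 9 and 22 at 10 h (9 without KCl library B, 15 without BDNF library A).

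Over time with KCl, 37 genes rose and 5 fell from 1 to 6 h (30.9% and 28.7% of all genes), and 1 rose and 25 fell from 6 to 10 h (12.9% and 9.66% of all genes). Rpl7l1 rose most from 1 to 6 h (1.13), and Rps4l (−0.78), Rps15a (−0.74), Rpl3 (−0.46) and Rpl22 (−0.41) fell. With copies added, Rps15a was at 0.43 against controls at KCl 1 h and at 0.35 at 6 h, so the size of its fall depended on the counting. These time courses turned on KCl 6 h library B: without it 10 rose and 6 fell from 1 to 6 h and 0 were called from 6 to 10 h by limma, while without library A 62 rose and 5 fell from 1 to 6 h and 61 fell from 6 to 10 h. Without KCl 1 h library B, 23 were called from 1 to 6 h, and without KCl 10 h library A 2 were called from 6 to 10 h. With BDNF, Rpl22l1 (0.60), Rpl12 (0.41) and Rps18 (0.35) rose and Rps27rt (−0.37) and Rpl23a (−0.35) fell from 1 to 6 h, where 15.8% and 17.7% of all genes rose and fell; without 1 library, 2 to 5 were called (2 without BDNF 6 h library A, 3 without BDNF 6 h library B or BDNF 1 h library A). From 6 to 10 h of BDNF 0 were called, with 0.074% of all genes rising and 0.142% falling, and between the controls 0 were called from 1 to 6 h or from 1 to 10 h, as in all genes (0%). For each of these 3 counts of 0, limma, edgeR and DESeq2 called 0 and 0 had an unadjusted p below 0.05.

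The changes of these short mRNAs went with transcript length. Across the 76 coding genes, Spearman's rho of log2 fold change with principal transcript length was −0.38, −0.32 and −0.24 at 1, 6 and 10 h of BDNF and −0.28, −0.43 and −0.39 at 1, 6 and 10 h of KCl; it is given across genes, which share libraries and are not independent. Across 13367 other coding genes it was −0.01, −0.20 and −0.22 with BDNF and −0.03, −0.05 and −0.03 with KCl. For deviations of single libraries from the control mean, the rho of these other genes spanned −0.31 to 0.20 in the controls alone. At KCl 6 h it was 0.01 in library A and −0.10 in library B. The median deviation of other coding genes under 1000 bases was 0.16 in library A and 0.34 in library B. At KCl 6 h the median was 0.75 for 18 genes with a transcript under 500 bases, 0.60 for 40 of 500 to under 1000 bases and 0.36 for 18 of 1000 bases or more. Other coding genes with a mean of at least 100 had medians of 0.36, 0.24 and 0.01 in the same classes. With BDNF at 1, 6 and 10 h the medians under 500 bases were 0.27, 0.28 and 0.27, against 0.11, 0.13 and 0.22 for other coding genes. From 500 to under 1000 bases they were 0.19, 0.19 and 0.22, against 0.07, 0.16 and 0.18. At 1000 bases or more they were 0.14, 0.11 and 0.16, against −0.01, −0.01 and −0.00. Of 544 other coding genes under 1000 bases, 286 rose and 105 fell at KCl 6 h (median 0.24) and 219 rose and 49 fell at BDNF 6 h (median 0.15). With a smooth trend on transcript length removed from each library, a choice made after seeing the data, the medians of the 82 fell to 0.12, 0.08 and 0.10 with BDNF and 0.22, 0.40 and 0.25 with KCl. Then 24, 20 and 24 genes rose and 0, 4 and 2 fell with BDNF, and 46, 71 and 56 rose and 1, 6 and 4 fell with KCl. The part of transcript length in the changes was not tested further.

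**Figure D3:**
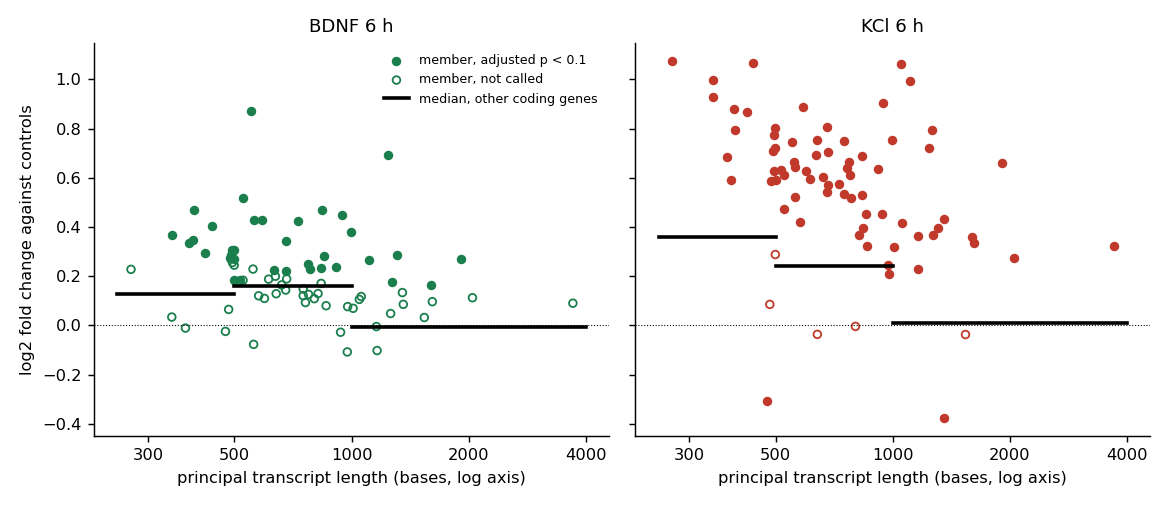
Log2 fold change at BDNF 6 h and KCl 6 h of the 76 coding genes against principal transcript length in bases (log axis); filled points passed the test, open points did not, and black bars give the median of other coding genes in 3 length classes. Shorter genes lie higher, from a median of 0.75 under 500 bases to 0.36 at 1000 bases or more at KCl 6 h, above the bars at 0.36, 0.24 and 0.01.

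Of 154 named pseudogene copies with a mean of at least 10, 38, 37 and 36 rose and 0, 1 and 2 fell with BDNF (24.7%, 24.0% and 23.4% rising, against 21.3%, 22.1% and 21.1% of all genes). With KCl 103, 133 and 98 rose and 2, 3 and 2 fell (66.9%, 86.4% and 63.6% rising, against 26.5%, 33.4% and 29% of all genes), with a median of 0.51 at 6 h. The share of rising copies was thus near that of all genes with BDNF and above it with KCl. Reads of a near-identical copy and of its parent gene cannot be told apart here. With reads of copies and gene added together, 39, 36 and 43 of the 82 rose with BDNF and 67, 77 and 65 with KCl, with 0, 0 and 0 and 1, 3 and 2 falling. In addition, 28 of the 82 overlap another tested gene, 13 of them on the same strand and 17 on the other.

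Other genes of the translation machinery were counted in lists. Of the 7 ribosomal protein genes with another symbol in the table, 6, 7 and 7 rose after 1, 6 and 10 h of KCl and 0 fell; Rps6, the target of S6 kinase, had log2 fold changes of 0.20, 0.43 and 0.43, and Rpl34 and Rpl27 rose most at 6 h (0.87 and 0.77). Fau and Rack1, which encode a ribosomal and a ribosome-bound protein under other names, rose at each time of KCl (0.91 and 0.68 at 6 h). Of 10 measured transcripts known for a TOP motif, 9 rose and 1 fell at KCl 1 h and 6 h, and of 7 elongation factors 5 rose at both times. The elongation factor Eef1a2 fell at KCl 6 h. Among all genes, 26.5% and 33.4% rose and 28.2% and 33.1% fell at 1 and 6 h of KCl. BDNF counts of the TOP and elongation factor lists are not given here. Of 38 initiation factors, 19, 21 and 25 rose and 1, 3 and 1 fell with BDNF, and 14, 21 and 17 rose and 3, 7 and 7 fell with KCl (36.8%, 55.3% and 44.7% rising, against 26.5%, 33.4% and 29% of all genes). The lists were chosen with earlier results of these data known.

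Ribosome assembly factors, the proteins that process rRNA and build the subunits in the nucleolus, showed another order of the stimuli. Of 60, 36, 56 and 50 rose with BDNF and 1, 0 and 0 fell; 13, 25 and 21 rose with KCl and 23, 15 and 8 fell. The rising share was 60%, 93.3% and 83.3% with BDNF (all genes 21.3%, 22.1% and 21.1%) and 21.7%, 41.7% and 35% with KCl (all genes 26.5%, 33.4% and 29%). Their median at 6 h was 0.47 with BDNF and 0.10 with KCl, against 0.19 and 0.59 for the 82 ribosomal protein genes. Compared directly at 6 h, 42 of the 60 assembly factors were higher and 5 lower with BDNF, where 3 of 82 ribosomal protein genes were higher and 58 lower. Bysl and Ltv1, both of small subunit assembly, rose by 1.11 ± 0.08 and 1.03 ± 0.10 at BDNF 6 h (adjusted p = 3.9e-10 and 5.3e-08). At KCl 6 h Nob1, the nuclease that completes 18S rRNA, rose by 0.89 ± 0.08, and Las1l, of rRNA spacer removal, fell by 0.75 on the log2 scale. Of 14 RNA polymerase I genes, 7, 8 and 7 rose with BDNF and 4, 3 and 3 with KCl (28.6%, 21.4% and 21.4%, near or below the shares of all genes), while 1, 0 and 0 and 5, 5 and 3 fell. Mitochondrial ribosomal proteins, encoded in the nucleus for a separate ribosome, rose mostly at the later times of BDNF: 7, 47 and 39 of 76 rose and 11, 0 and 0 fell. With KCl 7, 23 and 19 rose (9.21%, 30.3% and 25%, below the shares of all genes) and 31, 23 and 10 fell. Of 19 mTOR pathway genes, 4, 7 and 6 rose (21.1%, 36.8% and 31.6%, near the shares of all genes) and 7, 4 and 4 fell with KCl. At KCl 6 h the 2 largest rises of this list were Sesn2 (1.28 ± 0.10) and Rheb, and the 2 largest falls were Mycn and Deptor. BDNF counts of the mTOR list are not given here. For comparison by abundance, of 3240 genes with a mean of at least 1000, 1549 rose and 774 fell at KCl 6 h with a median of 0.12.

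**Figure D4:**
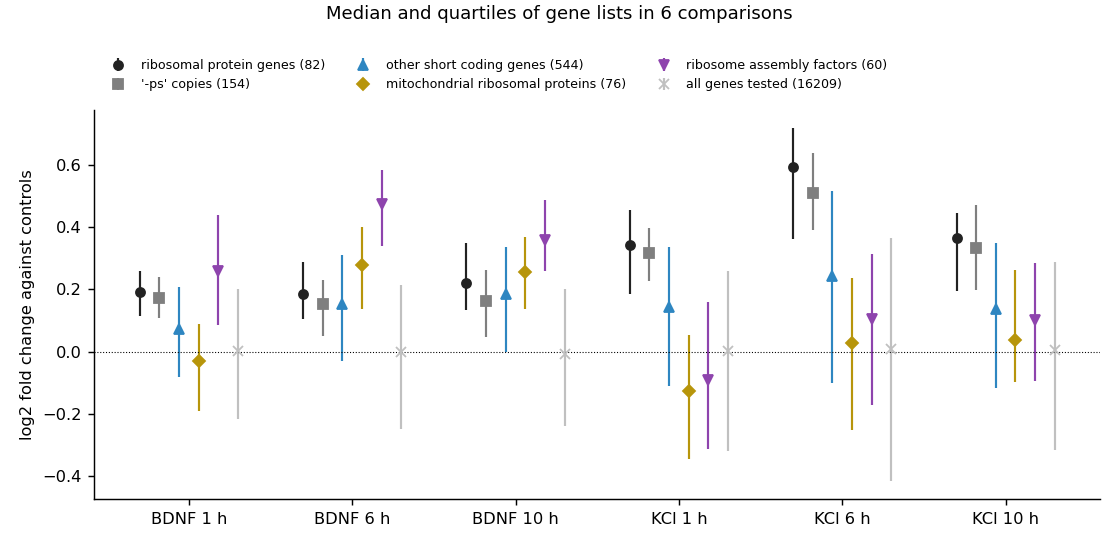
Medians (symbols) and quartiles (bars) of log2 fold changes against controls for 6 gene lists in the 6 comparisons. At 6 h the assembly factors lie highest with BDNF (0.47) and the 82 ribosomal protein genes highest with KCl (0.59), while the median of all genes stays near 0.

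In ATAC-seq, 75 of the 82 genes had 77 peaks within 1000 bases before to 100 after an annotated start; the 7 without were Rps27rt and the 6 annotated as pseudogenes. Of these, 41 also lie at the start of a gene outside the list. ATAC libraries held 1.24 to 6.24 M reads in peaks. Of the 77 peaks, 0 were gained at any time of either stimulus (edgeR, adjusted p below 0.1). Of all 56383 peaks, 12.4%, 8.82% and 7.56% were gained with BDNF and 5.15%, 5.59% and 5.93% with KCl. Of the 15271 promoter peaks, 4.72%, 1.97% and 2.17% were gained with BDNF and 5.31%, 2.61% and 2.16% with KCl. At these promoter shares only few of 77 peaks would be gained. The peaks gained at an unadjusted p below 0.05 numbered 1, 1 and 2 with BDNF and 0, 2 and 0 with KCl, and DESeq2 gained 0 in each. Closing peaks numbered 1, 0 and 4 with BDNF and 6, 6 and 4 with KCl. Of all peaks, 4.92%, 1.83% and 1.8% closed with BDNF and 3.15%, 1.98% and 1.94% with KCl. Of the promoter peaks, 2.90%, 0.95% and 1.63% closed with BDNF and 3.76%, 2.93% and 2.89% with KCl. At BDNF 6 h, 4 of the 77 peaks had an unadjusted p below 0.05 in either direction, and DESeq2 and limma called 0. The median over the 77 peaks was −0.10, −0.10 and −0.12 on the log2 scale after BDNF and −0.12, −0.10 and −0.19 after KCl, against −0.02, −0.02 and −0.04 and −0.00, −0.02 and −0.05 over 15271 promoter peaks. The number of closing peaks depended on the scaling: with size factors in place of the LOESS offsets it was 8, 1 and 9 with BDNF and 16, 20 and 30 with KCl. Of the 15271 promoter peaks, 1009, 337 and 929 then closed with BDNF and 1683, 1985 and 3072 with KCl. The median at KCl 10 h moved to −0.21 over all promoter peaks and to −0.34 over the 77. With size factors, TMM, limma or DESeq2 0 were gained as well, and 1 peak was gained at BDNF 6 h against the controls of the same time. With 1 library left out, 2 peaks were gained at BDNF 10 h (without its library B), 2 at KCl 6 h (without its library A), 1 at BDNF 1 h and 1 at BDNF 10 h (without control 1 h library B), 1 at BDNF 6 h (without control 10 h library A) and 1 at BDNF 10 h (without control 10 h library B).

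Among single promoters, the peak of Rps27 (chr3:90213379-90214186, mm10) held 72.9, 89.5 and 148 normalised counts in controls (lowest, median, highest) and 62.0 and 49.8 at KCl 6 h, below all controls (−0.74 ± 0.22, edgeR adjusted p = 0.0306), where its RNA rose by 0.93. The peak of Rpl7 (chr1:16104156-16106157) held 407, 461 and 479 in controls and 292 and 378 at KCl 10 h, below all controls (−0.44 ± 0.10, adjusted p = 0.00163), with an RNA change of 0.12 that was not called. The weak peak of Rpl4 (chr9:64172719-64173600) held 36.0, 42.1 and 61.2 in controls and 18.4 and 22.1 at BDNF 10 h (−1.10 ± 0.35, adjusted p = 0.0341). All 3 lay below the controls, and RNA of none of the 3 genes was called lower in that comparison. Others with the smallest adjusted p were Rps27a (−0.56), Rps26 (−0.58) and Rps20 (−0.42) at KCl 1 h, Rps12 (−0.39) and Rps20 (−0.36) at KCl 6 h, Rpl24 (−0.63) and Rps23 (−0.44) at KCl 10 h, Rpl27a (−0.48) and Rplp2 (−0.49) at BDNF 10 h and Rpl23a (−0.52) at BDNF 1 h. Of the genes with a peak whose RNA rose, the peak was below 0 for 46 of 68 at KCl 6 h and for 46 of 59 at KCl 10 h. Over all 77 peaks it was below 0 for 52 and 62, and the difference between these shares was not tested.

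**Figure D5:**
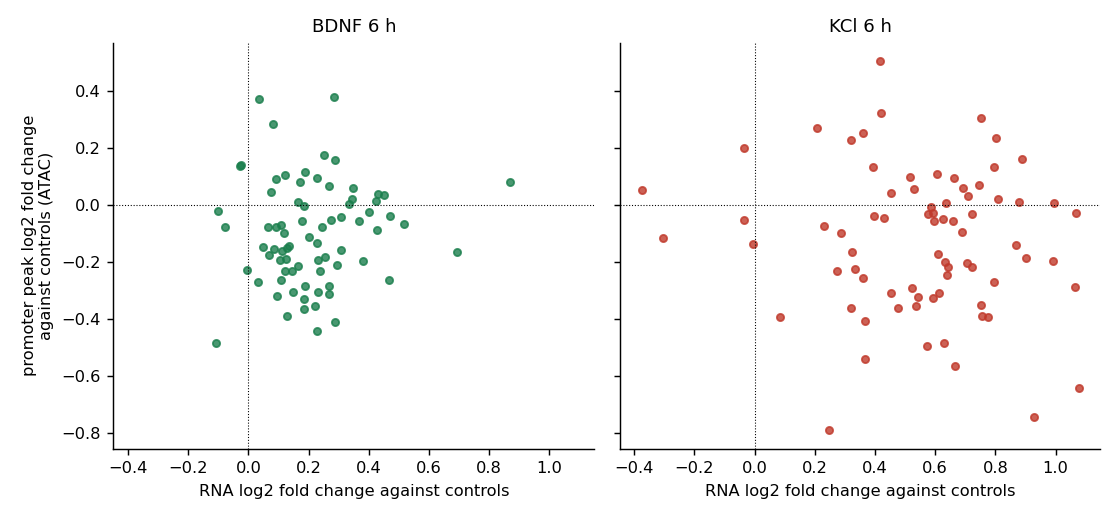
Log2 fold change of the promoter peak (ATAC-seq, vertical) against that of the RNA (horizontal), both against controls, for the 75 genes with a peak at BDNF 6 h and KCl 6 h. At KCl 6 h most points lie to the right of 0 in RNA, 68 of the 75 being called higher, and 46 of these 68 lie below 0 in the peak.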

How the data were processed

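The authors deposited 2 tables from 18 RNA-seq and 18 ATAC-seq libraries of mouse CNs. RNA values are a normalised signal per gene: reads were mapped to mm10 by the authors with TopHat2 and divided by DESeq2 size factors, per the labels and the methods of the study. Whole reads were recovered from the steps of these values. The counts deposited for ATAC-seq are whole numbers of reads per consensus peak (Bowtie2, MACS2 and DiffBind). The counting program, the treatment of multi-mapped reads and strandedness are not given in the sources used here.

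Genes with a mean of at least 10 were tested with limma 3.58.1 on log2(normalised count + 1), with a pseudocount of 1, a trend and robust option and 7 levels (6 stimulated groups and the 6 controls as 1 level). p-values were adjusted by Benjamini-Hochberg over all 16209 genes and called below 0.1. Fold changes are on this scale and understate those of low genes. Peaks were tested with edgeR 4.0.16 (quasi-likelihood, LOESS offsets, R 4.3.3). Controls of different times were compared with 9 levels. Alternatives were edgeR and DESeq2 1.42.0 on whole reads, other scalings, filters, pseudocounts, same-time controls, a replicate block and libraries left out. Scripts were tested on simulated counts in which all genes, or all peaks, had the same spread, which was not fitted to these libraries. For changes simulated in the KCl 6 h group limma recovered 58% of 0.5 and 90% of 1 log2 changes. Of its calls 11.4% were false. These shares therefore do not give the recovery in the real KCl 6 h libraries.

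The genes, lists and tests were chosen with earlier results of these data known. Genes named with values are the 3 largest rises and falls among called genes of each stimulus comparison with both libraries on 1 side of the control mean, paralog pairs, Rpl13, stalk and 5S rRNA-binding genes, Rpsa, Rps6, Rps27a, and the 5 of highest and lowest mean, for lists the 2 largest rises and falls at 6 h, and for peaks the 3 smallest adjusted p. Genes named outside this rule (Gm42418, Syngr1, Tmtc1, Kank3, Rpl3-ps1, the genes with the largest differences between stimuli or times, and those named for a level, a copy share or no call) were chosen after their values were seen. The authors' columns of fold changes and p-values were not used beyond gene symbols.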

Additional observations from a re-analysis of the deposited data

Results flagged for a closer look

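In the 6 controls, 3 of 35 groups examined held a library whose gap to the nearest other exceeded Dixon's 95% critical value for 6 samples (0.625 of the range), which chance gives in about 1 of 20 groups. Rpl24 was 41.5 normalised counts in control 6 h library B (50.9 to 56.0 in the others), Rps2 was 521 in control 1 h library A (461 to 482) and Rps27a was 401 in the same library (346 to 357), which is the most deeply sequenced.

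In the direct test of BDNF against KCl, 22 of 82 genes were called at 1 h (2 higher and 20 lower with BDNF; all genes 24.6% and 18.2%), 61 at 6 h (3 and 58; 29.6% and 27.8%) and 23 at 10 h (7 and 16; 23.1% and 21.8%). In either direction the called share was above that of all genes at 6 h and below it at 1 and 10 h. For single genes called in opposite directions or at opposite signs, BDNF minus KCl on the log2 scale was 0.51 for Rpl3 at 6 h and 0.41 at 10 h (limma adjusted p = 1.63e-05 and 0.000355), 0.32 for Rpl22 at 10 h (0.0028), 0.90 for Rpl7l1 at 1 h (7.78e-07), 0.43 for Rps15a at 10 h (0.000954), 1.12 for Rps4l at 6 h (5.34e-05), −0.33 for Rpl7 at 6 h (0.0085) and −0.35 for Rps4x at 6 h (0.00435). The values of Rpl7 and Rps4x at KCl 6 h rested on library B (0.01 and 0.04 against controls without it). The value of Rps15a rested on the assignment of reads to its copies: with copies added it changed by 0.12 against controls with either stimulus at 10 h.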

How the results depend on the processing

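The number of ribosomal protein genes called was within 1.5 times the reported count in 263 of 300 recomputations and the median log2 fold change within 1 SD in 122 of 132. At an adjusted p below 0.01, 5, 15 and 18 genes were called with BDNF, 8 and 7 between stimuli at 1 and 10 h, 2 for BDNF and 15 for KCl from 1 to 6 h, and 0 for KCl from 6 to 10 h. Scaling by library total moved the all-gene median to −0.12 at BDNF 1 h, −0.10 at KCl 1 h and −0.13 at KCl 6 h. The medians of the 82 became 0.073, 0.23 and 0.45, with an excess over all genes of 0.19, 0.34 and 0.58. Then 8 were called at BDNF 1 h, where 13.0% of all genes rose. The counts were 13 for BDNF from 1 to 6 h and 13 for KCl from 6 to 10 h. Without the trend and robust options the last was 17. Same-time controls gave 3 at BDNF 1 h and 22 at BDNF 10 h, where 14.6% and 14.4% of all genes rose. With the length trend removed, 24 and 26 were called at BDNF 1 and 10 h, where 21.3% and 21.4% of all genes rose. For BDNF from 1 to 6 h 10 were called (3 with copies added). The medians with the trend removed were 0.076 and 0.097 at BDNF 6 and 10 h and 0.22, 0.40 and 0.25 with KCl. With copies added, Rps15a at KCl 10 h turned from −0.31 to 0.12, the only change of direction among recomputed values of named genes called in the reported fit, of which 2497 stayed on the same side of the threshold and 226 lost their call. Leaving out each library in turn gave 2 to 44, 15 to 42 and 12 to 46 genes at 1, 6 and 10 h of BDNF, 42 to 64, 65 to 79 and 43 to 69 with KCl, 11 to 16, 43 to 73 and 9 to 22 between stimuli, 2 to 5 for BDNF and 16 to 67 for KCl from 1 to 6 h, and 0 to 61 for KCl from 6 to 10 h. The median at KCl 6 h then ranged from 0.42 to 0.74. For promoter peaks at BDNF 1, 6 and 10 h and KCl 1, 6 and 10 h the changed counts were, at adjusted p below 0.01, 0, 1, 1, 0 and 1 (no change at BDNF 6 h), with TMM 5, 14, 18 and 28 (BDNF 1 h and KCl), with size factors 8, 1, 9, 16, 20 and 30, with limma 0 at BDNF 1 h and 12 at KCl 6 h, with DESeq2 3, 15, 18 and 30 (BDNF 1 h and KCl), and with same-time controls 0, 1, 3 and 2 (BDNF 1 and 6 h, KCl 1 and 6 h). Leaving out a library gave 0 to 4, 0 to 1, 2 to 6, 1 to 6, 2 to 7 and 1 to 6. The causes were not tested. Of a simulated ATAC change of 0.5 on the log2 scale at BDNF 1 h 1% was recovered and of a change of 1 41%, over all 56383 peaks (median 28.2 normalised counts); the 77 promoter peaks, with a median of 111, were not simulated apart.

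For RNA the replicate letters share a letter alone: deviations of libraries with the same letter correlated from −0.31 to 0.42 (median 0.06). With a replicate block 38, 36 and 43 genes rose with BDNF and 62, 74 and 64 with KCl, and it changed no call of a named gene. No paired analysis was possible for ATAC-seq because its columns carry no replicate number.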
